A study of Mus musculus with 6 samples.

Results

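Zinc transporters and metallothioneins were followed in macrophage-like THP-1 cells, a human line from an acute monocytic leukaemia. The group consisted of the genes of the deposited count table whose names mark them as zinc exporters (SLC30A), zinc importers (SLC39A), metallothioneins 1, 2 and 3, or the metal-responsive transcription factor MTF1. This rule took 35 of 20036 genes: 10 exporters, 14 importers, 10 metallothioneins and MTF1. All cells had received PMA, a phorbol ester that makes these monocytic cells adhere and mature, at 100 ng/ml over 48 h. They sat below the porous membrane of a Transwell dish. The melittin group (3 libraries) was then kept below tumour cells with melittin, the lytic peptide of bee venom, at 3 µg/ml for 48 h. For the control group (3 libraries, titled NC) the labels do not say what the wells received or whether tumour cells stood above them, so an effect of co-culture cannot be told apart from one of melittin. The label for organism reads mouse, while all 20036 gene identifiers were human and 0 were mouse. The values are therefore read as human expression.

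Zinc cannot cross membranes unaided. SLC30A proteins (ZnT) move it out of the cytosol, either out of the cell or into organelles and vesicles, and SLC39A proteins (ZIP) move it into the cytosol. Metallothioneins are small, cysteine-rich cytosolic proteins that bind zinc and copper. MTF1 senses free zinc and switches on metallothionein genes and the plasma membrane exporter gene SLC30A1, which makes these transcripts common readouts of cytosolic zinc. In macrophages zinc handling is known as part of the response to microbes and inflammatory signals.

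Libraries held 16001423 to 19597781 counts. Libraries of one group differed from each other by 1.73 to 3.92 chi-square units per degree of freedom, more than counting noise, so each was counted as 1 replicate. Nothing in the labels says that the libraries came from separate cultures, so a p-value here speaks of the spread of 3 libraries a group, and that spread may be technical. Macrophage markers were present. The summed level of the 11 listed was 2360 to 2366 CPM (counts scaled to library size) in controls. With melittin it was 2092 to 2129 CPM. The defining marker CD68, however, had 0 counts in controls and a mean of 0.0185 CPM with melittin. How reads were counted is not given, and whether reads of CD68 were left out was not tested. Of the listed macrophage markers, 4 of 10 tested rose and 4 fell, where 38.1% of all tested genes rose and 38.3% fell. Some moved far: CSF1R was 3.07-fold, PTPRC 2.64-fold, LYZ 2.51-fold and CD14 2.13-fold lower. ITGAM was 2.47-fold and ITGAX 1.87-fold higher, while TYROBP (1.18-fold) and FCER1G (1.07-fold) rose little. The 10 epithelial and prostate markers summed to 66.0 to 69.9 CPM in controls and 93.3 to 105.1 with melittin, with EPCAM, KRT18 and KRT19 at 0 counts in every library. The 6 T, B and NK cell markers summed to 64.6 to 68.9 CPM in controls and 266.1 to 279.3 with melittin, nearly all of it NCAM1 (4.17-fold higher) and NKG7 (3.06-fold higher), while CD3D and MS4A1 had 0 counts in every library. All 4 proliferation markers were lower with melittin (median log2 fold change −1.38), from a summed 51.5 to 53.1 CPM to 17.9 to 20.3 CPM. The part of these shifts in the values below was not tested, and in such bulk samples fewer cells of a type and less RNA per cell cannot be told apart.

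Members moved in both directions. In the main test, metallothionein transcripts MT2A and MT1F were over 3-fold higher with melittin. The importers SLC39A3, SLC39A7 and SLC39A11 and the exporter SLC30A3 were 1.80-fold to 2.23-fold higher, and the exporters SLC30A6 and SLC30A1 were 2.21-fold and 1.69-fold lower. Of the 35 members, 22 had enough counts for a test, and 11 of these rose and 7 fell in the quasi-likelihood test of edgeR (threshold 0.05, Benjamini-Hochberg adjustment over 12029 genes). That is 81.8% of the tested members, where 76.4% of all tested genes passed, 38.1% higher and 38.3% lower. A share so near the background says little about the members as a group, and single members are therefore described by their size of change. Against a fold change of 1.5 rather than of 1, 6 members rose and 2 fell (36.4%), where 29.1% of all genes passed. The median log2 fold change was 0.23 over the 22 tested members and −0.007 over all genes. In 19 of the 22 the values of the control and melittin libraries did not overlap, as in 77.4% of all tested genes.

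**Figure D1:**
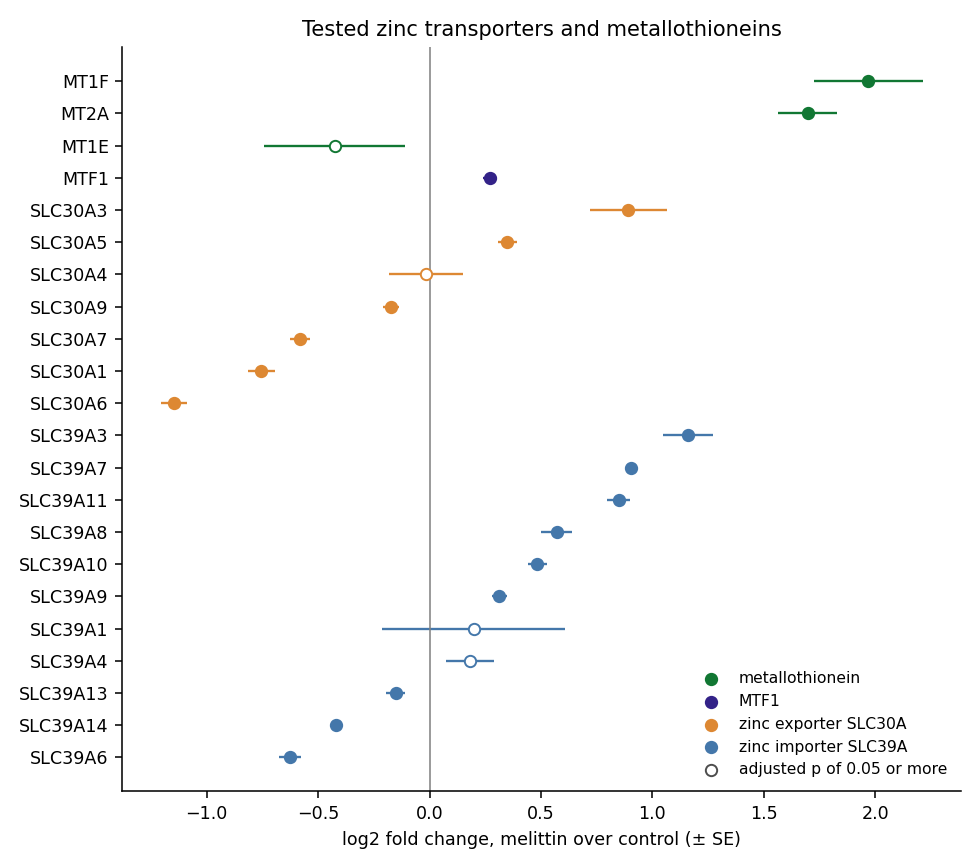
Log2 fold change of melittin over control for the 22 tested members, grouped by family, with bars of 1 SE; open points did not pass the edgeR test. MT1F (1.97) and MT2A (1.70) lie farthest to the right and SLC30A6 (−1.15) farthest to the left.

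MT2A, which encodes the main metallothionein of many human cells, stood at 9.49, 8.24 and 6.24 CPM in control replicates 1, 2 and 3, and at 19.96, 30.9 and 27.1 CPM in melittin replicates 1, 2 and 3. The lowest melittin library was thus above the highest control, although the melittin libraries spread more widely than those of most other members. MT2A rose 3.24-fold, a log2 fold change of 1.70 (SE 0.132, edgeR adjusted p = 4.43e-12), and it passed against 1.5-fold (adjusted p = 4.89e-09). The rise was smaller with library totals alone (log2 fold change 1.46) and with the trend of fold changes on gene length removed (1.30). MT1F, a further zinc-binding isoform, had 1.18, 0.989 and 0.693 CPM in controls and 3.38, 4.34 and 3.62 CPM with melittin. Its groups did not overlap either, and it rose 3.91-fold (log2 fold change 1.97, SE 0.245, edgeR adjusted p = 4.64e-08). These were low levels: a control library held 12 to 24 counts of MT1F and a melittin library 52 to 78.

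MT1E did not follow them. This isoform had 1.97, 1.51 and 1.85 CPM in controls and 0.585, 2.003 and 1.27 CPM with melittin, so melittin replicate 2 was above all 3 controls and the other melittin libraries were below. Its log2 fold change was −0.42 (SE 0.317, edgeR adjusted p = 0.225). Without melittin replicate 2 it passed as lower (−0.93, adjusted p = 0.0252), as it did with the trend of fold changes on gene length removed (−0.79, adjusted p = 0.026). MT1E rests on 9 to 40 counts per library.

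MT1X, usually counted among the metal-inducible isoforms, had 0 counts in all 3 controls and 6, 2 and 2 counts with melittin. Over the group this is at least 4.07-fold higher, when 3 counts over the controls are taken as the limit that a count of 0 allows, and 3.46-fold with library totals alone. The exact 95% interval of the ratio, which also takes in the counting error of the 10 melittin counts, starts at 2.73-fold; these limits cover counting error only. MT1X fell under the count filter and has no test in the main comparison. MT1G had a single count, in control replicate 1. MT1A, MT1B, MT1H, MT1M and MT3, the last a brain isoform, had 0 counts in every library, which allows up to 0.0509 CPM over the controls and 0.0621 CPM over the melittin libraries. Such limits cover counting error only, and not reads left out because several genes share them.

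The 10 metallothionein members lie side by side on chromosome 16 of GRCh38, from MT3 (start 56589074) to MT1X (end 56684196). Reads from 4 of the 10 members came to more than 1 count in all, and MT2A held 79.5 ± 3.00% (SD, n = 3) of the summed metallothionein FPKM (counts per kilobase of gene length, scaled to the library total) in controls and 89.4 ± 0.731% with melittin. The summed metallothionein level was 14.0, 11.9 and 9.69 FPKM in controls and 22.6, 35.1 and 30.4 FPKM with melittin. The MT1 genes are near-identical copies whose shared reads cannot be assigned with certainty, and how the authors treated such reads is not given in the sources used here. For MT2A and MT1X the gene length in the table equals the whole gene span, introns included, so their FPKM understates the level of the spliced transcript. How far the lengths of the other members exceed their spliced transcripts was not tested.

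**Figure D2:**
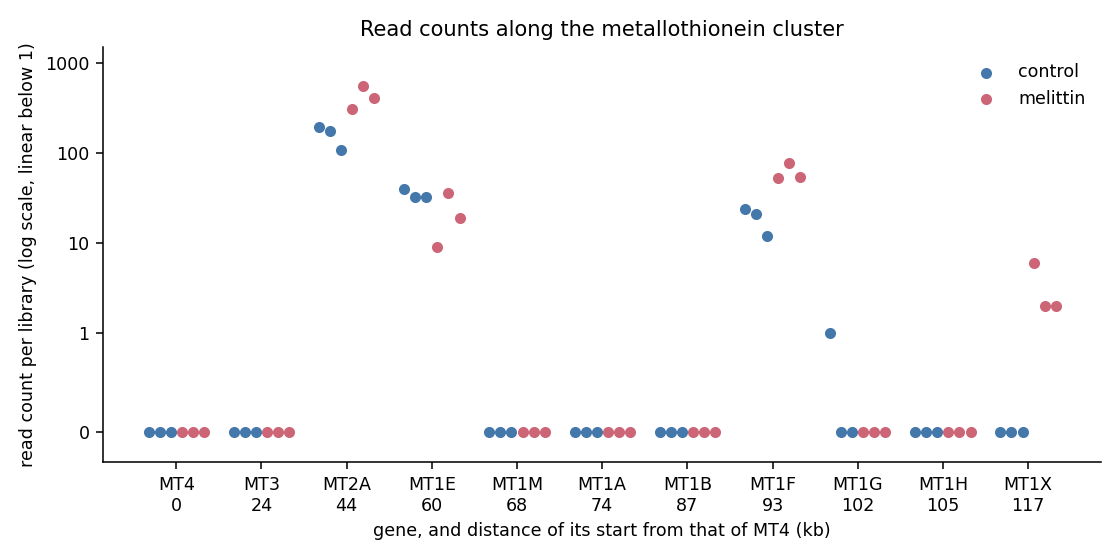
Read count of each library (points; log scale, linear below 1) for the metallothionein genes in their order along chromosome 16, with the distance of each start from that of MT4 in kb; MT4 is a neighbour outside the members. Counts gather in MT2A, MT1E and MT1F, and MT1X has counts in the melittin libraries alone (6, 2 and 2).

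MTF1, the zinc-sensing factor itself, changed little. Its level was 120.1, 121.3 and 126.3 CPM in controls and 147.6, 148.1 and 147.4 CPM with melittin, groups that did not overlap. It rose 1.21-fold (log2 fold change 0.27, SE 0.0324, edgeR adjusted p = 2.32e-08). This call ended with library totals as the only scaling (0.04, adjusted p = 0.273). That scaling put the median over all genes at −0.238 rather than −0.007, so MTF1 remained above the median.

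SLC30A1 (ZnT1), the plasma membrane exporter that MTF1 controls together with the metallothioneins, went the other way from MT2A. It stood at 43.1, 44.9 and 44.5 CPM in controls and at 25.5, 27.4 and 25.6 CPM with melittin, with every melittin library well below every control. It fell by 0.75 on the log2 scale (SE 0.0599, edgeR adjusted p = 6.95e-12) and passed against 1.5-fold (adjusted p = 0.00437). The number of MT2A counts per SLC30A1 count within a library does not depend on how libraries are scaled: it was 0.220, 0.184 and 0.140 in controls and 0.783, 1.13 and 1.06 with melittin, 5.47-fold higher. This ratio and the 2 ratios given below were chosen after the values were seen and carry no test.

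Other exporters load the secretory pathway with zinc, and they did not move together. SLC30A5 and SLC30A6 (ZnT5 and ZnT6) form a heterodimer in the early secretory pathway, and SLC30A7 (ZnT7) works there as a homodimer. SLC30A6 stood at 48.9, 47.8 and 50.2 CPM in controls and at 21.9, 21.97 and 22.4 CPM with melittin, the largest fall among the 22 tested members (2.21-fold lower, log2 fold change −1.15, SE 0.0598, edgeR adjusted p = 6.91e-16). Its partner SLC30A5 went from 79.5 ± 4.05 to 101.3 ± 5.04 CPM (SD, n = 3), a 1.27-fold rise (adjusted p = 5.8e-08) that was smaller with library totals alone (log2 fold change 0.12 against 0.35). There were thus 0.598, 0.639 and 0.613 SLC30A6 counts per SLC30A5 count in controls and 0.207, 0.229 and 0.220 with melittin, a ratio 2.82-fold lower. SLC30A7 had 125.0, 114.7 and 130.8 CPM in controls and 86.1, 78.3 and 83.5 CPM with melittin. It fell 1.49-fold (log2 fold change −0.58, SE 0.0449, adjusted p = 4.24e-12) and did not pass against 1.5-fold (adjusted p = 0.698).

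Of the other exporters, SLC30A9, a transporter of mitochondria, fell by 0.17 on the log2 scale, from 116.2 ± 2.91 to 103.1 ± 2.60 CPM (edgeR adjusted p = 0.000121). SLC30A3 (ZnT3), best known for loading synaptic vesicles, was a low transcript with 2.51, 3.11 and 3.35 CPM in controls and 6.11, 4.78 and 5.76 CPM with melittin. Its groups did not overlap and it rose 1.85-fold (log2 fold change 0.89, SE 0.173, edgeR adjusted p = 4.38e-05), passing against 1.5-fold (adjusted p = 0.0427). SLC30A4, an endosomal exporter, had 4.97, 5.04 and 3.87 CPM in controls and 4.16, 5.45 and 4.09 CPM with melittin. These groups overlapped, and no difference was detected (log2 fold change −0.02, SE 0.166, adjusted p = 0.933). In all, 2 of the 7 tested exporters rose and 4 fell, where 38.1% of all tested genes rose and 38.3% fell. The exporter median log2 fold change was −0.17. With library totals alone it was −0.40, and −0.238 over all genes. Counts over 7 genes say little about the family.

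SLC30A10, an exporter known for manganese, was too low for the main test, with 12, 5 and 10 counts in controls and 1, 3 and 1 with melittin. The 27 against 5 counts give a level 4.43-fold lower with melittin, with an exact 95% interval of 1.68 to 14.7 that covers counting error only. Tested with no count filter it passed as lower (edgeR adjusted p = 0.0159). SLC30A2 and SLC30A8, an exporter of secretory tissues and that of insulin granules, had 0 counts in every library.

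Among importers, 6 of 11 tested members rose and 3 fell, where 38.1% of all tested genes rose and 38.3% fell. Their median log2 fold change was 0.31. With library totals alone it was 0.08, and −0.238 over all genes. Counts over 11 genes say little about the family. SLC39A14 (ZIP14), a plasma membrane importer of zinc, iron and manganese that inflammatory signals are known to induce, was the most abundant. It stood at 795.7, 789.0 and 793.7 CPM in controls and at 615.6, 600.8 and 559.7 CPM with melittin, without overlap. It fell by 0.42 on the log2 scale (SE 0.0273, edgeR adjusted p = 8.52e-14) and did not pass against 1.5-fold. SLC39A8 (ZIP8), its close relative with the same range of metals and a known target of NF-kB in monocytes, rose instead, from 26.6, 26.4 and 27.5 CPM in controls to 43.0, 35.3 and 41.5 CPM with melittin (log2 fold change 0.57, SE 0.0693, adjusted p = 2.92e-08). There were 30.0, 29.9 and 28.8 SLC39A14 counts per SLC39A8 count in controls and 14.3, 17.0 and 13.5 with melittin, so the pair moved 1.98-fold closer.

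SLC39A7 (ZIP7), which releases zinc from the endoplasmic reticulum and Golgi into the cytosol, had 213.1, 210.5 and 216.4 CPM in controls and 402.9, 400.9 and 391.2 CPM with melittin. The libraries of each group lay within a few percent of each other and the groups were far apart. It rose 1.87-fold (log2 fold change 0.90, SE 0.0264), with the smallest adjusted p among the members (edgeR, 1.47e-21). SLC39A7 shares 361 bases (8.73% of its span) with RXRB on the opposite strand, and without a known strand setting reads there cannot be told apart; RXRB itself had a log2 fold change of 0.03 (edgeR adjusted p = 0.65). SLC39A3 (ZIP3), a plasma membrane importer, had 12.1, 9.60 and 10.05 CPM in controls and 29.0, 20.8 and 21.4 CPM with melittin, and rose 2.23-fold (log2 fold change 1.16, SE 0.113, adjusted p = 4.75e-10). SLC39A11 (ZIP11), an importer of the Golgi and nucleus, had 43.3, 47.9 and 48.2 CPM in controls and 87.9, 81.2 and 81.8 CPM with melittin, and rose 1.80-fold (log2 fold change 0.85, SE 0.0497, adjusted p = 9.63e-15). All 3 passed against 1.5-fold, and they were the only importers to do so.

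SLC39A10 (ZIP10) and SLC39A6 (ZIP6) are related plasma membrane importers that can pair with each other, and their transcripts went apart. SLC39A10 had 72.6, 80.8 and 77.9 CPM in controls and 103.0, 110.7 and 109.3 CPM with melittin (log2 fold change 0.48, SE 0.0428, edgeR adjusted p = 6.81e-11). SLC39A6 had 88.5, 91.6 and 80.0 CPM in controls and 56.8, 57.7 and 54.3 CPM with melittin, and fell by 0.62 on the log2 scale (SE 0.0491, adjusted p = 5.39e-12). Neither passed against 1.5-fold, and in both the groups did not overlap.

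The remaining importers differed little. SLC39A9 (ZIP9), an importer of the Golgi and plasma membrane, rose by 0.31 on the log2 scale, from 115.5 ± 3.47 to 143.5 ± 2.30 CPM (edgeR adjusted p = 2.93e-09), and by 0.08 with library totals alone (adjusted p = 0.0289). SLC39A13 (ZIP13), of the Golgi and vesicles, fell by 0.15, from 84.6 ± 3.90 to 76.3 ± 2.85 CPM (adjusted p = 0.00273). SLC39A4 (ZIP4), the importer of dietary zinc in the gut, had 8.69 ± 0.511 CPM in controls and 9.88 ± 0.226 with melittin (adjusted p = 0.129). In SLC39A4 each melittin library was above each control, yet with library totals alone the log2 fold change had the other sign (−0.05 against 0.18).

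SLC39A1 (ZIP1), a plasma membrane importer found in most tissues, was nearly absent from the counts, with 15, 11 and 8 in controls and 12, 12 and 8 with melittin. The groups overlapped (log2 fold change 0.20, SE 0.41, edgeR adjusted p = 0.668). SLC39A1 (chromosome 1, 153959099 to 153968184, GRCh38) lies for 99.4% of its span inside an unnamed gene of the same strand in the table, ENSG00000285779, which itself had 0 counts in every library. Whether reads shared by both were left out of the counts was not tested. SLC39A3 likewise lies wholly inside ENSG00000267001, also at 0 counts, and had 174 to 446 counts per library. Whether reads of SLC39A3 were left out in the same way was not tested either. Both overlaps are of gene spans, and shared exons were not looked at. SLC39A5 had 0 counts in controls and 2, 1 and 4 with melittin. Against the same limit of 3 counts this is at least 2.85-fold higher over the group, and 2.42-fold with library totals alone. The exact 95% interval of the ratio starts at 1.76-fold and covers counting error only. SLC39A12 had 0 counts in controls and 0, 1 and 1 with melittin, too few for a ratio, and SLC39A2 had 0 in every library.

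**Figure D3:**
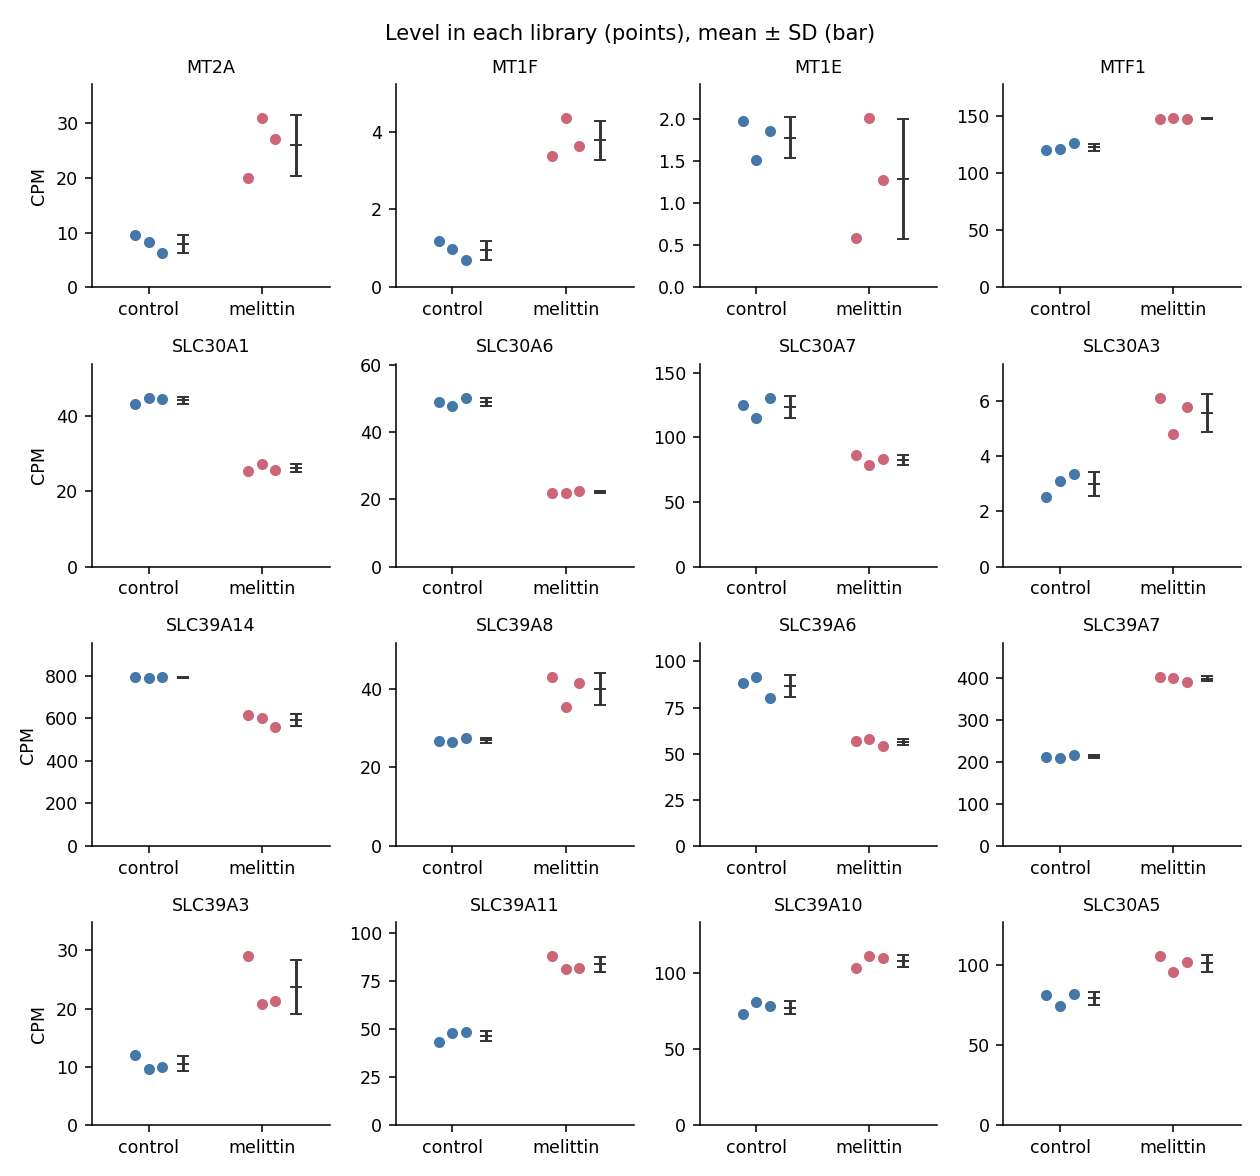
CPM of 16 members in each control and melittin library (points), with the mean and SD over 3 libraries beside them; each axis starts at 0. MT2A lies at 6.24 to 9.49 CPM in controls and 19.96 to 30.9 with melittin, SLC30A6 at 47.8 to 50.2 and 21.9 to 22.4, and in MT1E alone do the groups overlap.

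Levels of different genes can be compared per length only, and the deposited FPKM served for this. In controls SLC39A14 had the highest FPKM of the transporters, with 124.9, 123.8 and 124.3 in the 3 libraries, higher than 98.0% of all tested genes. SLC39A7 came next at 57.7 ± 0.753 FPKM, then SLC39A6 at 25.5 ± 1.78 and SLC39A13 at 20.02 ± 0.937 FPKM. SLC39A9 and SLC30A9 were level at 17.5 ± 0.515 and 17.5 ± 0.436 FPKM, and SLC30A5 and SLC30A7 at 15.8 ± 0.7995 and 15.6 ± 1.01 FPKM did not differ beyond their spread either. With melittin SLC39A7 stood above SLC39A14, with 93.2, 92.2 and 90.1 FPKM against 82.6, 80.1 and 74.7 FPKM, so the order of the leading pair was turned in each of the 3 libraries. Such orders rest on the gene lengths used, which for SLC39A7 took in 4003 of the 4135 bases of its span.

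The make-up of both families shifted accordingly. SLC39A14 held 45.3 ± 0.354% of the summed importer FPKM in controls and 30.6 ± 0.712% with melittin, and SLC39A7 21.0 ± 0.376% and 35.5 ± 0.464%. Among exporters SLC30A5 held 23.3 ± 0.753% in controls and 35.4 ± 1.148% with melittin. The summed exporter level was 68.0, 66.4 and 69.7 FPKM in controls and 49.4, 47.5 and 48.8 FPKM with melittin, a ratio of 0.714. The summed importer level was 274.3, 275.6 and 273.0 FPKM in controls and 266.4, 258.4 and 251.0 FPKM with melittin, a ratio of 0.943. The authors scaled FPKM by library totals, which lowers melittin values against those in CPM. With the TMM-adjusted library sizes of the CPM used instead, the direction of the importer sum turned: it was 253.0, 254.3 and 252.3 CPM per kb in controls and 287.5, 280.6 and 272.2 CPM per kb with melittin, a ratio of 1.11. The exporter ratio was then 0.838 and the metallothionein ratio 2.90, against 2.47 in FPKM.

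**Figure D4:**
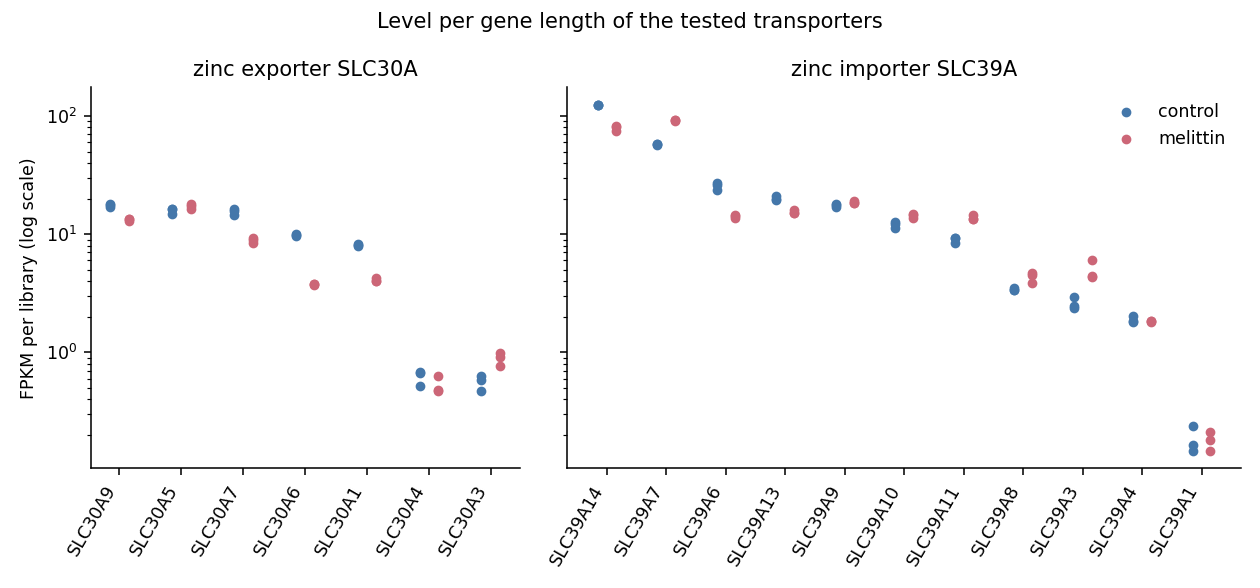
FPKM (log scale) of the tested exporters (left) and importers (right) in each library, ordered by the control mean. SLC39A14 leads in controls (mean 124.3 FPKM) and SLC39A7 with melittin (mean 91.9 FPKM), while SLC30A6 drops from 9.81 to 3.77 FPKM.

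**Figure D5:**
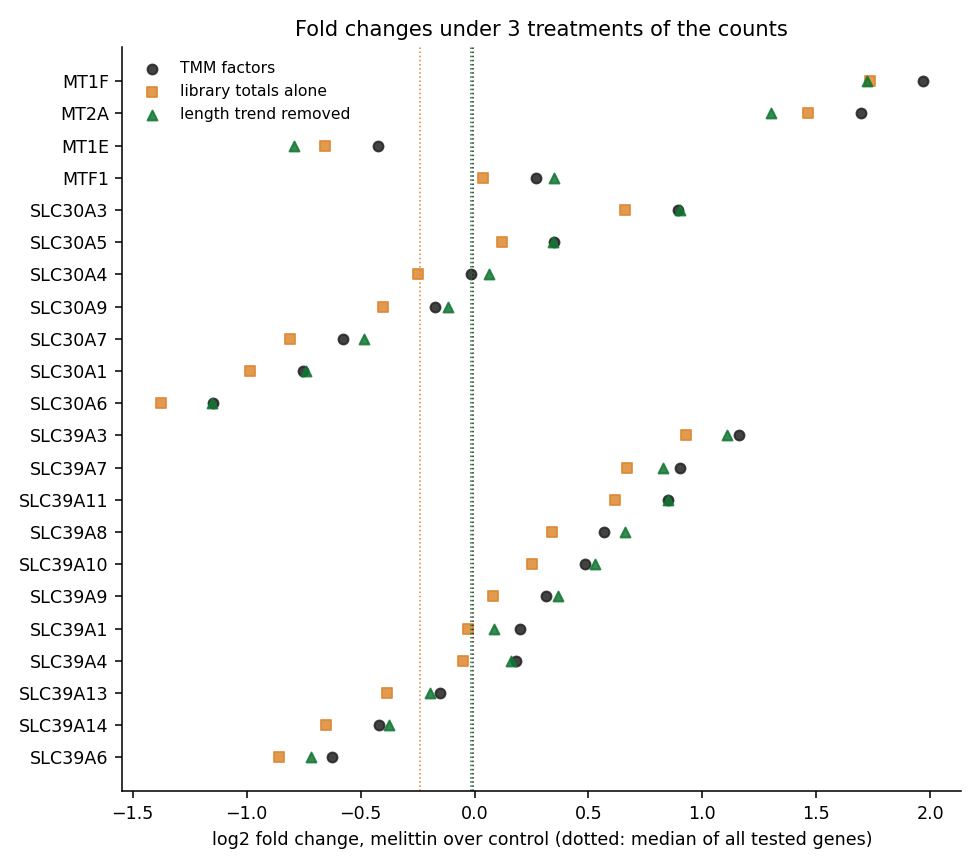
Log2 fold change of the 22 tested members with TMM factors, with library totals alone and after the length trend was taken out; dotted lines mark the median of all tested genes under each. Totals alone move every member to the left along with that median (−0.007 to −0.238), and removing the length trend moves the short metallothionein genes most (MT2A from 1.70 to 1.30).

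Other genes of zinc handling moved in both directions as well. Of 12 tested genes outside the families 3 rose and 4 fell (median log2 fold change −0.05), where 38.1% of all tested genes rose and 38.3% fell. With library totals alone 1 rose and 7 fell. Only 1 passed as higher without control replicate 1, without melittin replicate 1 or without melittin replicate 2. TRPM7, a zinc-permeable channel, fell from 150.1 ± 0.904 to 83.6 ± 1.61 CPM, and METAP1, the client of a zinc chaperone, from 104.3 ± 1.19 to 75.0 ± 0.742 CPM. TMC6, whose product binds ZnT1, rose from 58.5 ± 4.11 to 92.8 ± 2.58 CPM. ZNF658, a zinc-responsive repressor of zinc transporter genes, was 1.95-fold lower at 3.93 ± 0.0872 CPM. Of 7 tested genes linked to MTF1 other than the members 5 rose and 1 fell (median 0.85), beside the same shares of all tested genes. Counts over 7 genes say little about the list. GCLM, HMOX1 and TXNRD1, genes of glutathione synthesis, haem breakdown and thioredoxin reduction that NRF2 controls too, rose, and GCLC, the catalytic partner of GCLM, fell from 161.5 ± 2.29 to 68.1 ± 3.31 CPM. The calprotectin genes S100A8 and S100A9, whose protein withholds zinc from microbes, rose from 1.30 ± 0.237 to 4.94 ± 0.222 CPM and from 6.81 ± 0.652 to 18.0 ± 1.66 CPM. S100A12, listed with them, did not share this rise. It had 3, 8 and 6 counts in controls and 2, 3 and 5 with melittin, too few for the main test.

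Metals that share these carriers were read through their own lists. Of 15 tested copper genes 4 rose and 4 fell (median log2 fold change 0.08). The copper importer SLC31A1 rose from 166.2 ± 3.31 to 297.8 ± 5.07 CPM and the copper chaperone CCS from 9.80 ± 0.567 to 16.9 ± 0.497 CPM. The exporter ATP7A fell from 31.7 ± 0.315 to 22.3 ± 0.301 CPM and STEAP1 from 24.3 ± 0.814 to 16.2 ± 0.934 CPM. Of 14 iron genes 8 rose and 3 fell (median 0.27), and 6 and 5 with library totals alone. FTL (ferritin light chain), SLC25A37 (mitochondrial iron import), HMOX1 and SLC11A1 (phagosomal metal export) had the smallest adjusted p of that list and all rose. The largest change of the list by size went the other way: SLC40A1 (ferroportin, the iron exporter), named after its values were seen, was a low transcript that fell from 2.30 ± 0.582 to 0.307 ± 0.228 CPM, 7.32-fold lower (edgeR adjusted p = 3.04e-07). Of 5 manganese genes 4 fell and 0 rose (median −0.55, with a further gene lower on library totals alone), among them the Golgi genes TMEM165 (243.7 ± 2.61 CPM in controls, 164.8 ± 8.03 with melittin) and ATP2C1 (280.9 ± 4.83 and 192.3 ± 7.58 CPM). Over these lists together, 21 of 54 tested genes rose and 16 fell, where 38.1% of all tested genes rose and 38.3% fell. With library totals alone 17 rose and 25 fell, and over all 12029 genes 3160 rose and 6244 fell, so the lists shifted along with the whole table.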

How the data were processed

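RNA of 3 control and 3 melittin libraries was sequenced. Extraction used chloroform and library construction a NEBNext Ultra II kit, per the labels. The genome build was GRCh38, per the submitters' processing notes. Which aligner, counter, strand setting and annotation release were used is not given in the sources used here. Raw read counts per gene are in the deposited table, with FPKM values that the authors made from those counts, the gene length in the table and the library total (relative deviation up to 2.23e-09 over values of at least 20 counts). A second deposited table repeats these FPKM values (within 3.52e-06 FPKM over 120216 values). No reference sequence was used, since the one supplied is of mouse.

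The main test ran in edgeR 4.0.16 (R 4.3.3): filterByExpr with the group (12029 genes kept), TMM factors, glmQLFit and the two-sided glmQLFTest, with Benjamini-Hochberg adjustment over all tested genes and a threshold of 0.05. CPM are counts scaled to the TMM-adjusted library size, ± SD over 3 libraries, and 1 count was worth 0.0471 to 0.067 CPM. The SE of a log2 fold change is its size divided by the square root of the F statistic. glmTreat tested against 1.5-fold. DESeq2 1.42.0, limma 3.58.1 and other scalings and filters were alternatives. The test was tried on simulated counts in which 200 genes were changed 1.5-fold, 2-fold or 4-fold. Of those tested it recovered 88.1%, 95.5% and 100%, and 4.08% of its calls were false. In the real data 76.4% of tested genes passed. The trial therefore cannot speak of scaling where most genes change.

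Per-library values are given for tested members past the threshold with a log2 fold change of at least 0.5 in size, for members most used to describe cell zinc, and for members whose groups overlap. Other lists give up to 4 passing genes with the smallest adjusted p. Members and lists were chosen with earlier results of these data known. Exporters and importers not tested were SLC30A2, SLC30A8, SLC30A10, SLC39A2, SLC39A5 and SLC39A12.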

Additional observations from a re-analysis of the deposited data

How the results depend on the processing

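Calls of the 22 tested members were the same with median-of-ratios size factors, library sizes without the 20 most abundant genes, DESeq2, limma-voom, no count filter, and without control replicate 1, 2 or 3 or melittin replicate 1 or 3. No call reversed among the 395 values in all. Against 1.5-fold, 6 members were higher and 2 lower, 13 other metal-handling genes were higher and 5 lower, and 1761 of all genes were higher and 1734 lower. With library totals alone 25 other metal-handling genes were lower, and 26 with FPKM at a pseudocount of 0.1 or 1. FPKM, which carry that scaling, also ended the calls of MTF1 and SLC30A5 (adjusted p = 0.0551 for SLC30A5 at a pseudocount of 0.1) and, at 0.1, of SLC39A9 (adjusted p = 0.0513). At a pseudocount of 1, MT1E passed as lower (adjusted p = 0.0482). Of all passing genes 49.8% were higher, and 33.6% with library totals alone. With 1 library left out, 11 members were higher and 7 to 9 lower, the additional calls being MT1E without melittin replicate 2 and SLC30A10 where it passed the filter. SLC39A1 was not tested at a minimum of 1 CPM in 3 libraries.

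The replicate numbers were not seen to pair libraries: same-numbered control and melittin libraries had correlations of −0.0461, 0.0178 and −0.0191 in their deviations. A replicate block gave 11 members higher and 7 lower, 20 and 16 of the other metal-handling genes, and 4513 and 4537 of all genes, and changed no member's call. With TPM in place of FPKM the melittin over control ratio of the summed level was 0.643 for exporters and 0.849 for importers, and 0.838 and 1.11 with TMM-adjusted library sizes per kb, a setting chosen after seeing the data. Members with a few counts per library, MT1X, SLC39A5 and SLC30A10, are limited by depth. With no count filter their edgeR adjusted p were 0.00772, 0.0292 and 0.0159.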
